A study of Mus musculus with 8 samples.

Results

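The hosts of circular RNA described here are 45 genes of the signalling routes that drive growth of heart muscle cells, chosen by name. They belong to PI3K-mTOR signalling, the MAP kinase cascades, calcineurin-MEF2 signalling with cardiac transcription factors, and receptors with Gq and protein kinases C and D. The rest are cyclic nucleotide phosphodiesterases and genes of further growth pathways such as Hippo signalling. The list was drawn up with earlier results of these data known, so contrasts with the whole table describe this list. Of the 45 genes, 41 had at least 1 circle among those analysed here, with 310 of 27391 circles in the table and 41 of its 6492 hosts. Akt1, Ppm1l, Adrb1 and Agtr1a had 0 circles. The heart libraries came from male wild-type (WT) mice. A sham operation was done in 4 mice, and 4 had transverse aortic constriction (TAC), a surgical narrowing of the aorta that raises the pressure load of the left ventricle. Tissue was taken 8 weeks after surgery, and each mouse gave 1 library. The sources used here do not give the strain or age of the mice, the heart chamber or a readout of hypertrophy. Both groups shared the genotype, sex, tissue and time.

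A circular RNA (circle) made of exons forms when the splice site at the end of an exon is joined back to one upstream of it, and it is counted by reads across that back-splice. It keeps the exons of its host but not the ends of the messenger RNA, so its level need not follow that of the messenger RNA, which was not measured here. Pressure overload is known to act on heart muscle through hormone receptors coupled to Gq, which activate phospholipase C, protein kinase C and protein kinase D. A rise of calcium activates the phosphatase calcineurin, which lets NFAT factors enter the nucleus, while protein kinase D releases MEF2 factors from class II histone deacetylases. PI3K-mTOR signalling raises protein synthesis, and MAP kinases, phosphodiesterases and the Hippo pathway adjust growth, contraction and survival.

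The libraries held 1119 to 100142 back-spliced reads. The second sham library had 3963 reads and the second TAC library 1119, while the other 6 had at least 17890. The deposited values equal reads divided by 1 factor per library, so a single read was worth 0.195 in the deepest library, 4.54 in the second sham library and 5.77 in the second TAC library. The fourth sham library had the most reads and 5600 circles, fewer than the 9081 of the first sham library with its 40796 reads. Cardiomyocyte marker genes were all represented (10 of 10, summed level 176 to 804 in sham and 289 to 1700 in TAC libraries). Of 8 fibroblast markers 6 had circles, with summed levels of 1.66 to 4.54 in sham and 0 to 1.91 in TAC libraries, and Postn and Tcf21 were at 0. All 6 endothelial markers had circles, at 10.2 to 40.9 in sham and 0 to 42.0 in TAC libraries. Of 5 leukocyte markers 3 had circles, at 0 to 10.5 and 0 to 13.4, with Csf1r and Cd68 at 0. The part of these cell types in the differences below was not tested, and in whole tissue fewer cells of a type and less RNA per cell cannot be told apart.

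A few back-splices carry most of the description that follows, and their joined ends are printed first, with positions on mm10 and exon numbers of the matching GENCODE M21 transcript. Each line gives the last 15 bases of the last exon in lower case followed by the first 15 bases of the first exon in capitals, as they meet in the circle. Camta1 2-3 (chr4:151830418-151835883, minus strand, 189 nt) had the most reads of the 310 circles. Prkd1 3-4 (chr12:50425439-50428234, minus strand, 293 nt) and Prkd1 3-5 (chr12:50419853-50428234, 317 nt) share their first exon, so the capitals are the same. Mef2a 5-7 (chr7:67264865-67268400, minus strand, 412 nt) has a second form that starts at an alternative exon 5 (chr7:67264865-67268204, 418 nt), and here the lower-case end is shared. Mef2d 7-9 (chr3:88161191-88163087, plus strand, 342 nt) and Mef2d 2-9 (chr3:88155678-88163087, 1137 nt) likewise end at the same base.
Camta1 2-3: tggaacactaatgagAGCGTTTCCCAAAGT
Prkd1 3-4: gatgagcctttactgCTTCAGCCACCTTCG
Prkd1 3-5: agccctggctttgagCTTCAGCCACCTTCG
Mef2a 5-7, 412 nt: gaaatagtcctgtggACGTTAAGAAAGAAA
Mef2a 5-7, 418 nt: gaaatagtcctgtggGCTCTGAACAAGAAG
Mef2d 7-9: ctgcctacaacacagGGAATGGCTATGTCA
Mef2d 2-9: ctgcctacaacacagGAGGCTGTGCATAGG
Rps6kb1 2-4: aaggtgcttaaaaagGGTCAGTTAAATGAA
Prkce 7-10: tgcttccagaccaagTCTGCAAAATGAATG

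Camta1 2-3 and Prkd1 3-4 are short and lie wholly in coding sequence, and their whole sequence is given from the first base of the first exon to the last base of the last, with the 15 bases on either side of the back-splice in capitals. Camta1 2-3 codes for a stretch of the amino-terminal part of the transcriptional activator CAMTA1, and Prkd1 3-4 includes the first cysteine-rich zinc finger of protein kinase D1, the lipid-binding part of the enzyme.
Camta1 2-3: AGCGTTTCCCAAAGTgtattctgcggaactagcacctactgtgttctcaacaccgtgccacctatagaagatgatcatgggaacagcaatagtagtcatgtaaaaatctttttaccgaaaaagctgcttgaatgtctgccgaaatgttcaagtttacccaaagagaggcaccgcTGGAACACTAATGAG
Prkd1 3-4: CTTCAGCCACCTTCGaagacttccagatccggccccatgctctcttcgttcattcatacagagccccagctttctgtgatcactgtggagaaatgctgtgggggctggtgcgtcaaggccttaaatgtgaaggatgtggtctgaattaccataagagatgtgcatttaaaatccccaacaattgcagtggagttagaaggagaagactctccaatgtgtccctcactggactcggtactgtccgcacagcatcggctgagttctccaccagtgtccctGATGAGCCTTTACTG

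The member circles were like the rest of the table in size and less sparse. Their median length was 503 nt, against 506 nt for all circles, with a median of 4 exons in both. Lengths are spliced, except for intronic circles (5 of the members, 1326 in the whole table), which count with their genomic span. None of the 305 circles with an exon match began at exon 1, 66 (21.6%) began at exon 2, against 23.1% of all matched circles, and 29 (9.51%) contained the start codon, against 10.3%. Coding sequence alone made up 274 of them (89.8%, against 88.3%). The introns that flank them were longer, with a median of 8738 nt upstream and 5767 nt downstream against 5305 and 4161 nt, values given as a description. The median host had 6 circles, against 2 over all hosts, and 12 of the 41 hosts (29.3%) had 10 or more, against 10.3% of all hosts. Reads were thin: 159 member circles (51.3%) were seen in 1 library only and 119 (38.4%) had a single read, against 61.7% and 46.5% in the whole table.

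Together the hosts took 3062 of the 254236 reads. Their share of a library was 1.23%, 1.51%, 1.20% and 1.13% in the sham libraries and 1.28%, 0.536%, 1.40% and 1.20% in the TAC libraries. The low value belongs to the second TAC library, which had 6 member reads, with a Wilson 95% interval of 0.246% to 1.16%. In that library 37 of the 41 hosts were at 0, and a count of 0 there allows a share of up to 0.268% of its reads. In the second sham library 21 hosts were at 0. Intervals and limits cover counting error only, and no molecular identifiers are stated. Over all libraries the calcineurin-MEF2 group had 930 reads, the MAP kinase group 793, the PI3K-mTOR group 418, the receptor group 398 and the phosphodiesterases 177. The 6 hosts with the most reads, Camta1, Map3k5, Mef2a, Sos2 and Rps6kb1 among them, held 49.8% of the member reads.

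Host sums, the normalised reads of all circles of a gene, were compared between 4 TAC and 4 sham libraries with limma on log2(value + 0.195), with Benjamini-Hochberg adjustment over all 2967 hosts above 0 in at least 4 libraries. Of the 36 member hosts tested, 0 passed an adjusted p of 0.05, and over all hosts 0.0337% did. The changes were positive for 17 hosts and negative for 19, with a median log2 change of -0.04 against 0.13 over all hosts. Only Nfatc1 had an unadjusted p under 0.05 by limma, as did 90 of the 2967 hosts. Among 68 single circles 0 passed, as did 0.0268% of all circles, and 1 circle had an unadjusted p under 0.05, as did 152 of all 3735. Since whole reads could be recovered from the values, edgeR's quasi-likelihood test was run on them as well. It tested 16 member hosts, of which 0 were called higher in TAC (3.33% over all hosts) and 1, Prkd1, lower (4.9% over all hosts), with 2 at an unadjusted p under 0.05, as were 245 of all 1020. edgeR called 0 of 9 member circles, against 13.1% of all circles it tested, and 0 of the 9 had an unadjusted p under 0.05. DESeq2 gave an adjusted p to 18 of the 36 hosts and called 0, against 2.62% of all hosts given one. At an unadjusted p under 0.05 it had 3 of the 36, and 240 of all 2967 hosts.

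Leaving out the 2 shallow libraries, a choice listed among the alternatives, compares 3 sham with 3 TAC libraries. limma then called 5 of 35 hosts higher in TAC (Mef2a, Mef2d, Dyrk1a, Nfatc1 and Prkce) and 1 lower (Prkd1), where 9.82% and 2.57% of all hosts were called. Its median log2 change was 0.89 for the members and 0.61 for all hosts, so on this scale most hosts lay above 0. edgeR called 2 of 23 hosts higher (Mef2a and Dyrk1a) and 1 lower (Prkd1), against 10.9% and 10.7% of all hosts, with medians of 0.42 and 0.16. In these 6 libraries 11 of 36 member hosts were higher in every TAC than in every sham library, against 25% of all hosts. Prkd1 was the 1 host lower throughout, against 7.21%. Over all 8 libraries Rptor was the 1 host with every TAC value above every sham value, against 1.35% of all hosts. The limma share of 5 of 35 was somewhat above its background, and 1 of 35 was near it. The edgeR shares of 2 of 23 and 1 of 23 were below theirs. These differences amount to few hosts and were not tested.

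**Figure D1:**
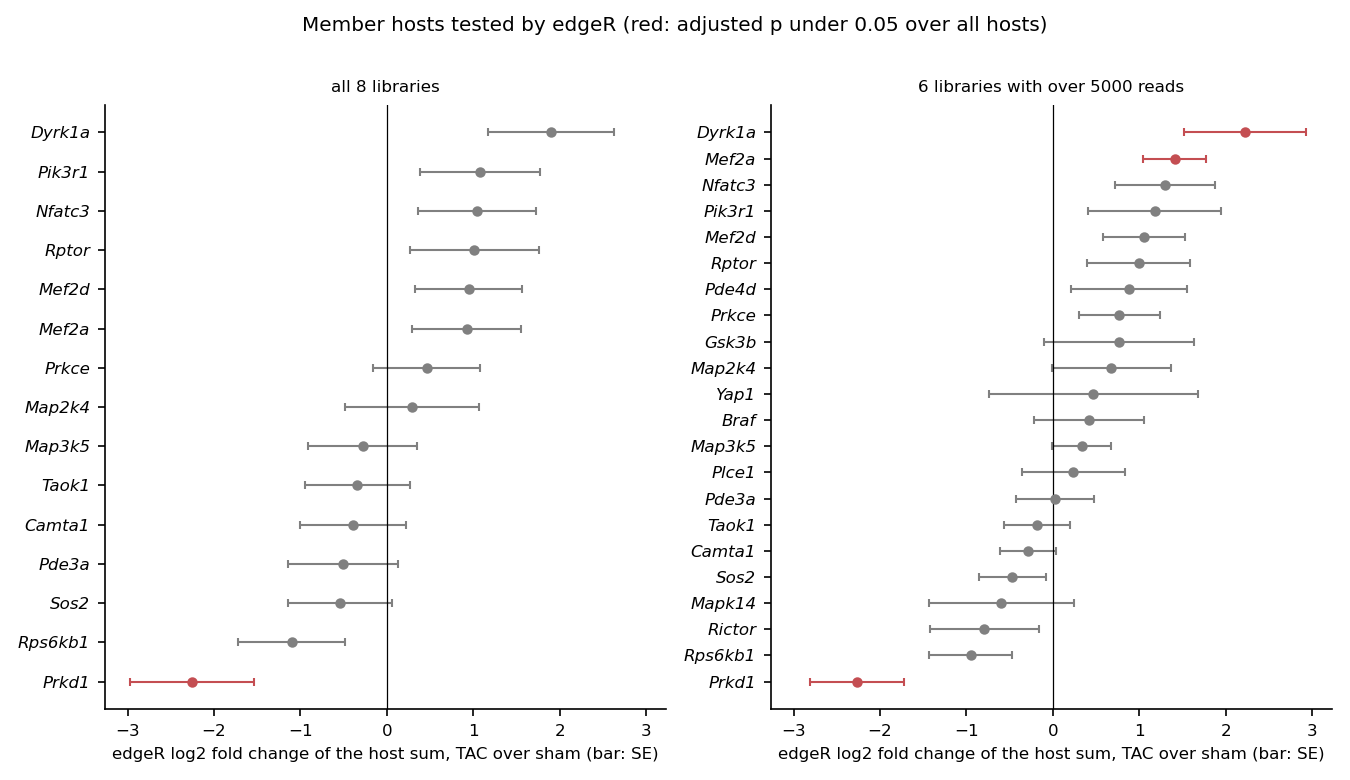
edgeR log2 fold changes of the host sums (TAC over sham, points) with their standard errors (bars), in all 8 libraries (left) and in the 6 libraries with over 5000 reads (right), for the tested member hosts that are reported here. Red marks an adjusted p under 0.05 over all hosts: Prkd1 at -2.25 on the left, and Prkd1 at -2.26, Mef2a at 1.41 and Dyrk1a at 2.23 on the right.

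Of the receptors and the enzymes next to them, 6 of 8 had circles. Adrb1, the main cardiac beta-adrenergic receptor, and Agtr1a, the angiotensin II receptor, had 0. Gnaq, the alpha subunit of Gq, had a single circle of exons 3 to 5 with 4 reads, and Plcb1, a phospholipase C activated by Gq, had 6 circles and 12 reads. Neither was tested. Prkca, the main conventional protein kinase C of heart muscle, had 8 circles and 30 reads with overlapping groups. Plce1, a phospholipase C that also responds to Ras, had host sums of 2.28, 13.6, 4.14 and 3.11 in sham and 4.46, 0, 6.18 and 3.82 in TAC libraries. The high value was the second sham library, where it stood for 3 reads, and the groups overlapped. Its leading circle joined exons 16 to 18 (chr19:38736431-38739406, plus strand, 384 nt) and held 29.17% of its reads.

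Prkd1, protein kinase D1, the kinase that phosphorylates class II histone deacetylases, was the member host called with all 8 libraries, by edgeR alone. Its host sums were 6.07, 0, 10.8 and 14.2 in sham and 1.49, 0, 2.06 and 4.45 in TAC libraries. Both shallow libraries were at 0, and in the other 6 each TAC value lay below each sham value, with a mean of 10.3 ± 4.08 in sham and 2.67 ± 1.57 in TAC (SD, n = 3 each). Behind these stood 16, 0, 13 and 73 reads in sham and 2, 0, 2 and 7 in TAC. The log2 change was -2.25 ± 0.71 (SE) by edgeR with an adjusted p of 0.0295, and -1.45 ± 1.60 by limma with an adjusted p of 0.9995. The edgeR call was kept without the second sham library (-2.44, adjusted p 0.00416) and lost without the third sham library (adjusted p 0.0875) or the TAC libraries in turn (0.307, 0.0726, 0.347 and 0.118). Without the first or the fourth sham library Prkd1 had too few reads for the edgeR filter. In the 6 edgeR fits with 1 library left out that tested Prkd1, the log2 change stayed between -2.76 and -1.89. The limma change with 1 library left out ranged more widely, from -2.87 to -0.52, and was never called.

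The Prkd1 reads came from 3 circles, and the 2 that begin at exon 3, printed above, held 97.35% of them. Prkd1 3-5 had 13, 0, 8 and 17 reads in sham and 0, 0, 1 and 1 in TAC libraries. It was higher in each of the 3 deep sham libraries than in any TAC library. Prkd1 3-4 had 3, 0, 3 and 56 reads in sham and 1, 0, 1 and 6 in TAC, so most of its reads came from the fourth sham library, and the groups overlapped. In the 6 deep libraries edgeR gave -3.26 ± 0.998 for Prkd1 3-5 (adjusted p 0.0219) and -1.51 ± 0.87 for Prkd1 3-4 (adjusted p 0.199), where 16.4% of all circles were called higher and 13.6% lower. Whether the change of the 2 circles differed was not tested. In these libraries Prkd1 3-5 passed the edgeR filter through its sham reads alone. With an offset for circle length in the same fit, the log2 change of Prkd1 3-5 was -2.52 with an adjusted p of 0.104. The intron before exon 3 is 61668 nt long.

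Prkce, protein kinase C epsilon, a calcium-independent isoform known for its part in stress responses of heart muscle, had host sums of 18.2, 18.2, 10.8 and 5.25 in sham and 25.3, 0, 32.9 and 21 in TAC libraries. The 3 deep TAC libraries lay above all sham libraries, and the second TAC library had no read. Its log2 change was -0.63 ± 1.24 by limma and 0.46 ± 0.62 by edgeR, with adjusted p of 0.9995 and 0.706. Without the shallow libraries limma gave 1.34 ± 0.41 (adjusted p 0.02) and edgeR 0.77 ± 0.47 (adjusted p 0.266), so limma called it and edgeR did not. Prkce 7-10 (chr17:86488160-86496111, plus strand, 614 nt) held 68.59% of the reads, with 34, 4, 9 and 14 in sham and 25, 0, 22 and 23 in TAC libraries.

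**Figure D2:**
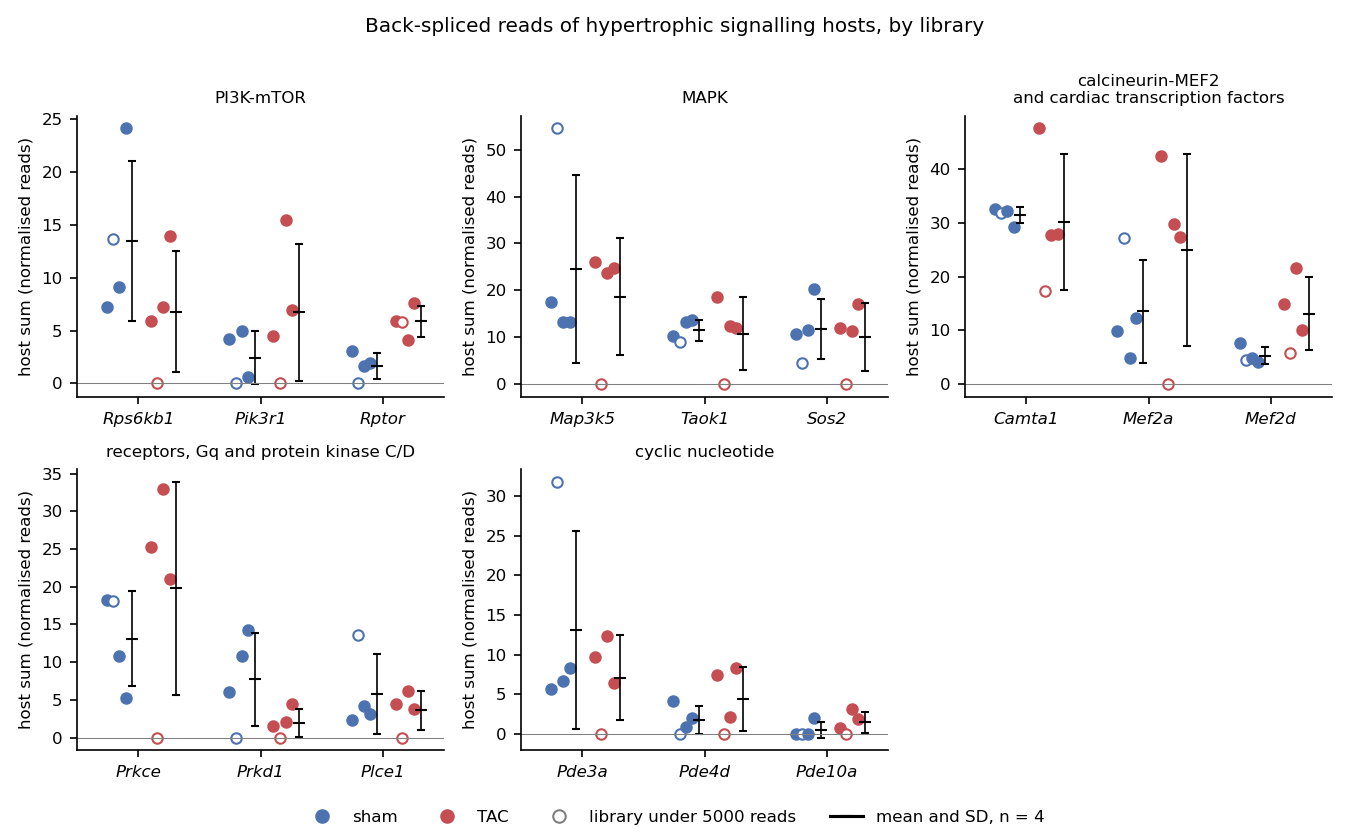
Host sums in normalised back-spliced reads (y axis, linear) for the 3 hosts with the highest mean in each of 5 pathway groups, 1 point per library, sham in blue and TAC in red. Open points are the libraries with 3963 and 1119 reads, and bars give the mean and SD of 4 libraries; several open TAC points lie at 0, and Prkd1 is the host whose 3 filled TAC points all lie below the filled sham points.

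In the PI3K-mTOR group 7 of 8 genes had circles and 6 were tested, 4 with a positive and 2 with a negative limma change and 0 called. Rps6kb1, the S6 kinase that mTORC1 activates, had host sums of 7.20, 13.6, 9.11 and 24.1 in sham and 5.95, 0, 7.21 and 14.0 in TAC libraries. The groups overlapped, and the log2 change was -1.88 ± 1.37 by limma and -1.10 ± 0.62 by edgeR (adjusted p 0.9995 and 0.268). A single circle of exons 2 to 4, Rps6kb1 2-4 (chr11:86532772-86535460, minus strand, 240 nt), held 81.44% of its reads, with 17, 3, 10 and 101 in sham and 5, 0, 3 and 19 in TAC. Rptor, the scaffold of mTORC1, had 3.03, 0, 1.66 and 1.95 in sham and 5.95, 5.77, 4.12 and 7.63 in TAC libraries. Each TAC value was higher than each sham value, but the second TAC value stood for 1 read. The log2 change was 2.24 ± 1.58 by limma and 1.01 ± 0.74 by edgeR (adjusted p 0.9995 and 0.426). The Rptor reads were spread over 9 circles, of which Rptor 5-6 (chr11:119743867-119756414, plus strand, 323 nt) held 46.67%.

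Pik3r1, the p85 regulatory subunit of PI3K, had host sums of 4.17, 0, 4.97 and 0.584 in sham and 4.46, 0, 15.4 and 7.0 in TAC libraries, with overlapping groups and a limma change of 1.23 ± 1.60. Its leading circle was the single exon 2 (chr13:101757326-101758039, minus strand, 714 nt), which contains the start codon and held 55.77% of the reads. Gsk3b, a kinase that opposes growth signalling, had 39 reads, 56.41% of them in a circle of exons 9 and 10. Rictor, the scaffold of mTORC2, had 68 reads over 13 circles, 41 of them from the fourth sham library. Mtor, the kinase itself, had 16 reads over 6 circles. Pik3ca, a catalytic subunit of PI3K, had 3 reads in the first and 1 in the fourth TAC library and none in sham libraries, too few to test.

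In the MAP kinase group 8 of 9 genes had circles and all 8 were tested, 2 with a positive and 6 with a negative limma change and 0 called. The group had 0 reads in the second TAC library. Without the shallow libraries 6 changes were positive and 2 negative, with a median of 0.76 against 0.61 over all hosts, and 0 were called. Map3k5 (ASK1), a kinase that responds to oxidative stress, had the most circles of any member host, 27, with 239 reads. Its host sums were 17.4, 54.5, 13.2 and 13.2 in sham and 26.0, 0, 23.7 and 24.8 in TAC libraries. The second sham library was far above the others and the second TAC library at 0, whereas in the other 6 the TAC values lay above the sham values. The log2 change was -1.46 ± 1.14 by limma with all libraries and 0.77 without the shallow ones (adjusted p 0.9995 and 0.172). Of its circles 9 begin at exon 4 and held 57.32% of its reads, and they range in their last exon from 7 to 17 among those with 5 or more reads. Map3k5 4-10 (chr10:20023608-20059090, plus strand, 1068 nt) held 20.92%.

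Taok1, a kinase upstream of p38 and JNK, had host sums of 10.2, 9.09, 13.2 and 13.6 in sham and 18.6, 0, 12.4 and 12.1 in TAC libraries. Sos2, an exchange factor that activates Ras, had 10.6, 4.54, 11.6 and 20.2 in sham and 11.9, 0, 11.3 and 17.2 in TAC libraries. For both the groups overlapped also without the shallow libraries, and edgeR gave -0.34 ± 0.61 and -0.54 ± 0.61 (adjusted p 0.798 and 0.635). Taok1 2-8 (chr11:77571607-77585494, minus strand, 745 nt) contains the start codon and held 39.77% of its host's reads. Sos2 13-16 (chr12:69603476-69610826, minus strand, 610 nt) held 46.27%. Of the other members, Braf, a kinase of the ERK cascade, had 51 reads over 11 circles, Mapk14 (p38 alpha) 44 reads over 6, Map2k4, which activates JNK and p38, 38 reads over 8, Mapk8 (JNK1) 31 reads over 4 and Sos1 18 reads over 8. Mapk8 was concentrated in 1 circle of exons 2 to 5, which contains the start codon and held 90.32% of the reads. Mapk8 had the lowest limma change of the group, -2.34 ± 1.60, and Sos1 the highest, 0.96 ± 1.52.

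The calcineurin-MEF2 group had the most reads, and all 12 genes had circles. Of 11 hosts tested by limma 7 had a positive and 4 a negative change and 0 were called. The group took 0.392%, 0.429%, 0.330% and 0.265% of the reads in sham and 0.531%, 0.357%, 0.508% and 0.393% in TAC libraries. Without the shallow libraries 9 of 10 hosts had a positive limma change, where 1951 of 2881 hosts over the whole table did, with a median of 1.49 against 0.61. limma then called 4 of the 10 higher (9.82% over all hosts), and edgeR 2 of 5 (10.9% over all hosts). In that limma fit 4 of 6 PI3K-mTOR hosts were positive (median 1.49), as were 6 of 8 MAP kinase hosts (0.76). So were 3 of 4 receptor hosts (0.96) and 3 of 3 phosphodiesterases (1.31). Among further genes of the calcineurin-MEF2 pathway, limma called 2 of 12 higher and edgeR 1 of 10. Ppp3ca and Ppp3cb, the catalytic subunits of calcineurin, had 6 and 18 reads. Among the NFAT factors that calcineurin dephosphorylates, Nfatc1 had 1, 0, 0 and 0 reads in sham and 3, 0, 3 and 7 in TAC libraries. Its limma change was 2.68 ± 1.31 (unadjusted p 0.0403, adjusted p 0.9995), and 3.58 ± 1.23 without the shallow libraries (adjusted p 0.0417). Its 14 reads were spread over 6 circles. Nfatc1 just met the filter of 4 libraries, with 1 of them sham. The size of its limma change depends on the 0.195 added to the sham values of 0.

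Nfatc3 had host sums of 2.65, 4.54, 3.31 and 2.14 in sham and 11.9, 0, 7.21 and 6.36 in TAC libraries. The 3 deep TAC libraries were above all sham libraries, and edgeR gave 1.04 ± 0.68 with all libraries (adjusted p 0.359). The single exon 2 formed its leading circle (chr8:106078604-106079741, plus strand, 1138 nt), with 0, 1, 0 and 0 reads in sham and 11, 0, 3 and 6 in TAC libraries. That circle held 60.61% of the Nfatc3 reads of the TAC libraries and 4.348% of those of the sham libraries. It had too few reads for the edgeR filter with all libraries and without both shallow ones. Of the 3 edgeR fits that tested it, the fit without the second TAC library called it higher (4.52 ± 1.37, adjusted p 0.0183). Those without the third sham and without the third TAC library gave 4.01 and 4.36 with adjusted p of 0.101 and 0.177. The sham side of these fits was 1 read, from the second sham library. That read was worth 4.54, more than the 3 reads of the third TAC library at 3.09, so the groups overlapped. The fit that called the circle left out a TAC library where it was at 0. The limma change of the circle over all libraries was 2.32 ± 1.52 (adjusted p 0.834).

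The MEF2 factors, which switch on muscle genes, differed in their circles. Mef2a had host sums of 9.86, 27.3, 4.97 and 12.3 in sham and 42.4, 0, 29.8 and 27.3 in TAC libraries. In the deep libraries the mean was 9.03 ± 3.71 in sham and 33.2 ± 8.06 in TAC (SD, n = 3 each), with no overlap, while the second sham library was close to the lowest of these TAC values and the second TAC library at 0. The log2 change was -0.34 ± 1.21 by limma and 0.93 ± 0.63 by edgeR with all libraries (adjusted p 0.9995 and 0.384). Without the shallow libraries it was 1.92 ± 0.40 by limma (adjusted p 0.000343) and 1.41 ± 0.36 by edgeR (adjusted p 0.0119). The 412-nt Mef2a 5-7 circle held most of these reads, with 19, 6, 2 and 48 reads in sham and 52, 0, 25 and 38 in TAC libraries and 82.61% of the host's reads. In the deep libraries it changed by 1.97 ± 0.50 in edgeR (adjusted p 0.00936), and by 2.12 ± 0.49 with a length offset (adjusted p 0.0075). The 418-nt form from the alternative exon 5 had 1, 0, 0 and 3 reads in sham and 2, 0, 1 and 3 in TAC libraries. A circle of exons 2 and 3 with 12 reads was seen in the fourth sham library alone.

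Mef2d had host sums of 7.58, 4.54, 4.97 and 4.09 in sham and 14.9, 5.77, 21.6 and 10.2 in TAC libraries, so that the lowest TAC value, 1 read of the second TAC library, fell inside the sham range. The log2 change was 1.16 ± 1.30 by limma and 0.95 ± 0.62 by edgeR (adjusted p 0.9995 and 0.359). Its 2 leading circles end at the same base, as printed above, and differ in where they start. Mef2d 7-9 had 8, 0, 0 and 21 reads in sham and 3, 0, 4 and 2 in TAC libraries, 60.42% of the sham and 15.52% of the TAC reads of the host. Mef2d 2-9, which contains the start codon, had 1, 0, 0 and 0 reads in sham and 7, 0, 7 and 7 in TAC libraries, 2.083% and 36.21%. These shares pool the reads of a group. In the fourth sham library all 21 Mef2d reads came from Mef2d 7-9. In the other sham libraries 8 of 20, 0 of 1 and 0 of 6 did, so the pooled sham share rests largely on 1 library. In the deep libraries edgeR gave 4.84 ± 1.19 for Mef2d 2-9 (adjusted p 0.00736) and -0.32 ± 0.94 for Mef2d 7-9 (adjusted p 0.826). With a length offset the log2 change of Mef2d 2-9 was 3.4 with an adjusted p of 0.0705. Whether the 2 circles changed differently was not tested. In the deep libraries Mef2d 2-9 passed the edgeR filter through its TAC reads alone, so its fold change rests on 1 sham read. Mef2c had 16 reads, 87.5% of them in a circle of exons 5 to 7.

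**Figure D3:**
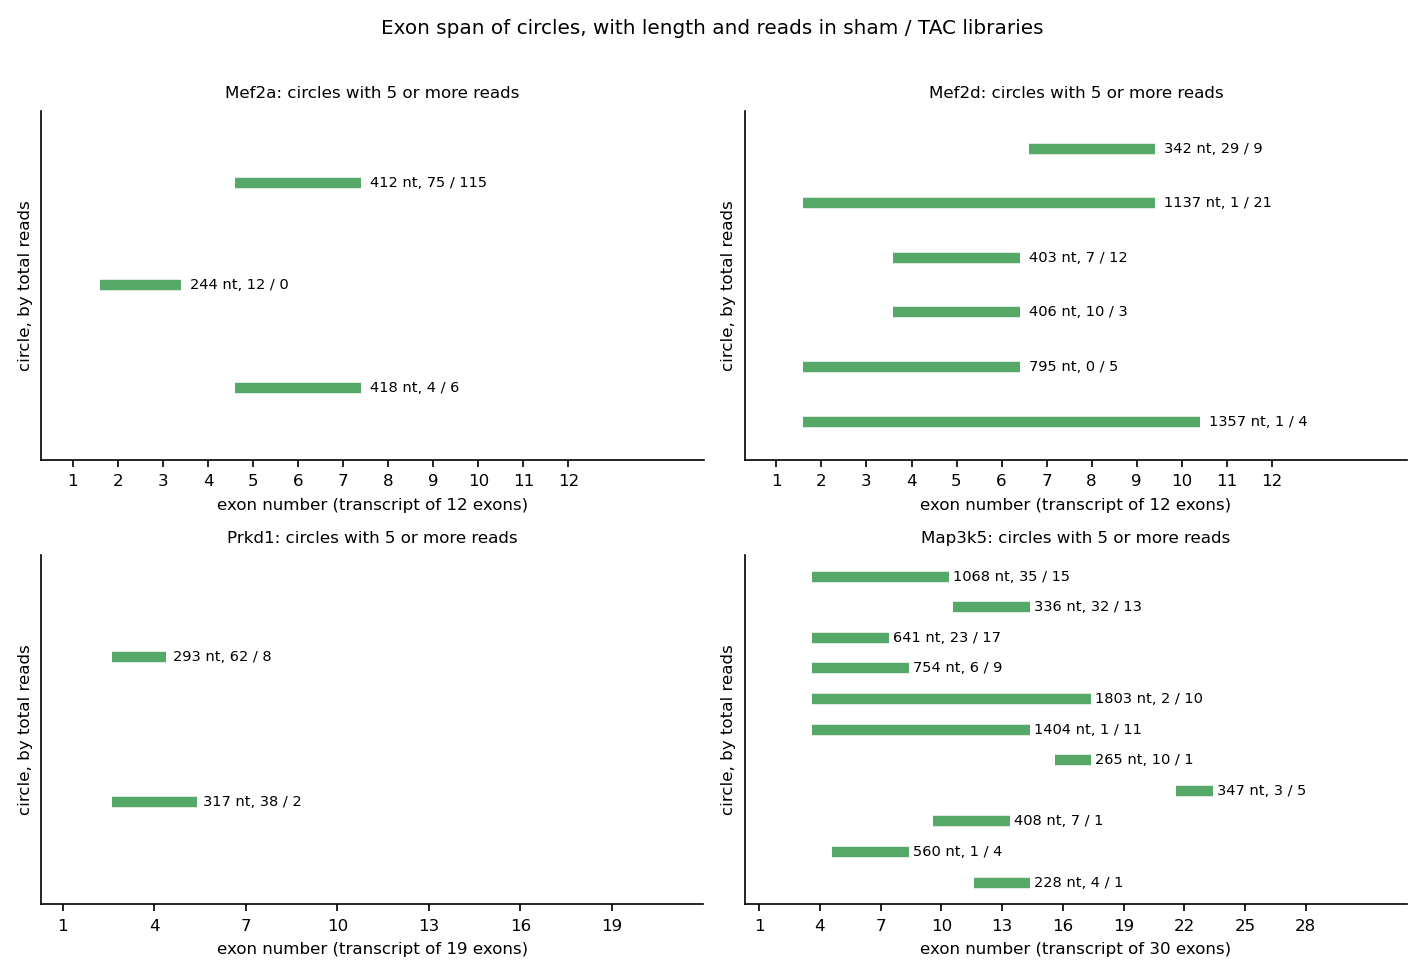
Exon span (x axis, exon number in the matching transcript) of the circles with 5 or more reads of Mef2a, Mef2d, Prkd1 and Map3k5, ordered by total reads, each with its spliced length and its raw reads in 4 sham / 4 TAC libraries of unequal depth. The 342-nt and 1137-nt Mef2d circles end at the same exon with 29 / 9 and 1 / 21 reads, and both Prkd1 circles start at exon 3.

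Dyrk1a, a kinase that sends NFAT back out of the nucleus, had host sums of 1.52, 4.54, 0 and 1.95 in sham and 5.2, 0, 14.4 and 7.0 in TAC libraries. The 3 deep TAC libraries were above all sham libraries. edgeR gave 1.90 ± 0.73 with all libraries (adjusted p 0.0829), 2.01 ± 0.72 without the second sham library (adjusted p 0.0346) and 2.23 ± 0.71 without both shallow libraries (adjusted p 0.0343). Its leading circle, Dyrk1a 2-3 (chr16:94611419-94659693, plus strand, 283 nt), had 3, 0, 0 and 10 reads in sham and 1, 0, 8 and 2 in TAC libraries. Dyrk1a 3-9 (1229 nt) was seen in TAC libraries alone, with 2, 0, 4 and 2 reads. Mef2a and Dyrk1a were thus called by edgeR only in fits that left out shallow libraries. In the edgeR fits that called it, Dyrk1a passed the filter through its TAC reads alone.

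Camta1, a transcriptional activator, was the member with the most reads, 420, and 1 of 2 hosts seen in all 8 libraries, the other being Mef2d. Its host sums were 32.6, 31.8, 32.3 and 29.2 in sham and 47.6, 17.3, 27.8 and 28.0 in TAC libraries. The sham libraries lay within a narrow range (31.5 ± 1.56, SD, n = 4), and the TAC libraries on both sides of it (30.2 ± 12.6). The log2 change was -0.15 ± 0.82 by limma and -0.39 ± 0.61 by edgeR (adjusted p 0.9995 and 0.760). Camta1 2-3 was the 1 member circle seen in all 8 libraries, with 63, 7, 26 and 135 reads in sham and 56, 2, 18 and 35 in TAC, and it held 81.43% of its host's reads. In the deep libraries edgeR gave -0.01 for this 189-nt circle (adjusted p 0.992), and 1.73 ± 0.49 with a length offset (adjusted p 0.0243). The intron after exon 3 is 243935 nt long. Camta2, its paralog, had 6 reads, and Gata4 and Gata6, zinc-finger factors of cardiac growth, had 1 and 10.

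All 4 phosphodiesterases, which break down cyclic AMP or cyclic GMP, had circles, and 0 of the 3 tested hosts were called. Pde3a had host sums of 5.69, 31.8, 6.62 and 8.37 in sham and 9.67, 0, 12.4 and 6.36 in TAC libraries. The high value was the second sham library, with 7 reads. Without the shallow libraries the groups overlapped and edgeR gave 0.025 ± 0.45 (adjusted p 0.977). Pde3a 3-5 (chr6:141459056-141466241, plus strand, 535 nt) held 35.19% of its reads, and 5 circles that begin at exon 3 held 73.15%. Pde4d had 4.17, 0, 0.828 and 1.95 in sham and 7.44, 0, 2.06 and 8.27 in TAC libraries, with overlapping groups and a limma change of 0.98 ± 1.60. Its leading circle, Pde4d 9-13 (chr13:109933868-109939361, plus strand, 631 nt), held 55.32% of 47 reads, and an intron of 707689 nt lies between its other 2 circles, of exons 2 to 3 and 4 to 7. Pde10a had 10 reads in the fourth sham library, all in Pde10a 2-6 (chr17:8756962-8930559, plus strand, 461 nt), none in the other sham libraries, and 1, 0, 3 and 3 in TAC libraries from other circles. Pde7a had 5 reads in 5 circles and was not tested.

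Of the Hippo pathway, Lats1 and Yap1 had circles, and both were tested and not called. Lats1, the Hippo kinase that phosphorylates YAP, had 0, 0, 0.828 and 4.47 in sham and 7.44, 5.77, 2.06 and 1.27 in TAC libraries, with overlapping groups and a limma change of 2.43 ± 1.60 (adjusted p 0.9995). Its leading circle, Lats1 2-3 (chr10:7691335-7697649, plus strand, 628 nt), contains the start codon and held 46.15% of 39 reads. Yap1, the coactivator itself, had 30 reads, 17 of them in the fourth sham library.

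The other genes of the same pathways, 193 by name, had 147 hosts with circles. limma tested 86, 44 with a positive and 42 with a negative change, and called 0, with 1 at an unadjusted p under 0.05. edgeR tested 43 and called 2 higher and 3 lower, where 3.33% and 4.9% of all hosts were called, so these counts are near the background. Shoc2, a scaffold that links RAS to RAF, had 1, 3, 0 and 0 reads in sham and 27, 0, 13 and 13 in TAC libraries (edgeR 3.86 ± 0.86, adjusted p 0.00121). The normalised Shoc2 value was 13.6 in the second sham library and 20.1, 0, 13.4 and 8.27 in TAC libraries, so the groups overlapped. Nfatc2, a further calcineurin target, had 4, 1, 2 and 7 reads in sham and 31, 1, 26 and 22 in TAC libraries (edgeR 3.10 ± 0.71, adjusted p 0.00163). Lower were Pik3c2a, a class II PI3K (-2.06 ± 0.66, adjusted p 0.0302), Pde8a, a cyclic AMP phosphodiesterase (-2.13 ± 0.67, adjusted p 0.0277), and Rapgef6, an exchange factor for Rap (-1.89 ± 0.65, adjusted p 0.0477). Pde8a had 335 of its 424 reads in the fourth sham library. DESeq2 gave 1.79 ± 1.97 for Shoc2 (adjusted p 0.693). Its adjusted p was 0.00246 for Nfatc2, 0.0216 for Pik3c2a, 0.153 for Pde8a and 0.076 for Rapgef6.

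Circle length moved with the groups. Circles over 1000 nt took 2.8%, 18.3%, 1.87% and 4.07% of the member reads in sham and 16.5%, 0%, 14.9% and 12% in TAC libraries. Among the 6 deep libraries the TAC values were all higher than the sham values, and the second sham library was higher than any TAC library. Circles under 300 nt took 26.2%, 20%, 29% and 39.4% in sham and 19.8%, 50%, 19% and 20.6% in TAC libraries. Over all circles of the table the share over 1000 nt was 2.77%, 13.6%, 2.64% and 2.1% in sham and 16.5%, 8.82%, 13% and 11% in TAC libraries. Of the circles described above with more reads in TAC than in sham libraries, Mef2d 2-9, the Nfatc3 exon 2 circle and Dyrk1a 3-9 are 1137, 1138 and 1229 nt long, while Mef2a 5-7 and Prkce 7-10 are 412 and 614 nt long. Prkd1 3-5, with fewer reads in TAC libraries, is 317 nt long. The labels do not say whether RNA fragments or read lengths differed between libraries, and the part of length in these differences was not tested beyond the offset fits given above.

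**Figure D4:**
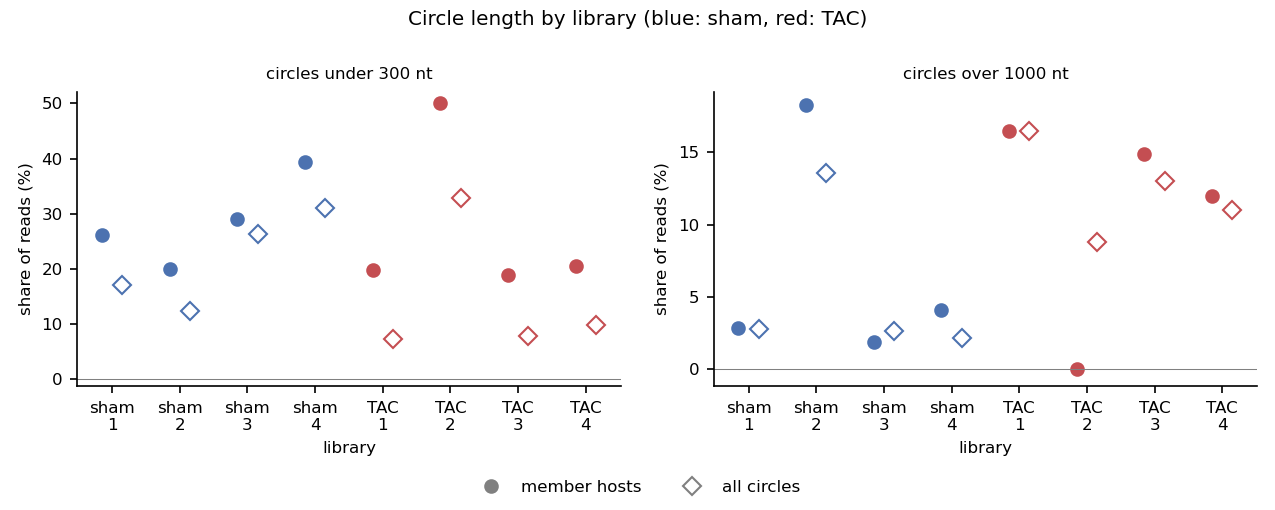
Share of back-spliced reads (y axis, %) in circles under 300 nt (left) and over 1000 nt (right) for each library, sham in blue and TAC in red, with filled circles for the member hosts and open diamonds for all circles. Over 1000 nt the members reached 12% to 16.5% in TAC libraries 1, 3 and 4 and 1.87% to 4.07% in sham libraries 1, 3 and 4; the second TAC library had 6 member reads.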

How the data were processed

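Back-spliced reads were measured in 8 heart libraries, 4 sham and 4 TAC, each from 1 mouse. The authors deposited a table of normalised signal per circle. The values are whole reads divided by 1 factor per library: 100% of values gave whole reads within 0.001, and the factors equal the median of ratios over the 115 circles seen in all libraries. Genome build mm10, HISAT2, StringTie and DESeq2 are named in the submitters' processing notes without versions or roles, while the sources used here do not give the circle caller. Reads per library ranged from 1119 to 100142, and 0 columns had no sample.

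Starts in the table count from 0 (99.88% met an exon start after adding 1), so 1 was added, and exon structure and sequences came from GENCODE M21. Each host's values were summed over its circles. The main test was limma 3.58.1 (R 4.3.3) on log2(value + 0.195), with a trend, over hosts or circles above 0 in at least 4 of 8 libraries and Benjamini-Hochberg adjustment across all of them. edgeR 4.0.16 (quasi-likelihood, TMM, minimum count 5 and total 15) and DESeq2 1.42.0 ran on the recovered reads. The edgeR standard errors are the fold change divided by the root of the F statistic. The limma and edgeR fits were tried on simulated reads with large changes in abundant hosts, which does not show how they do for sparse hosts. Alternatives were pseudocount 1, a filter of 2 libraries, no filter, TMM rescaling, each library left out, both libraries under 5000 reads left out, and a length offset; the offset without the shallow libraries was chosen after seeing the data. Groups are compared over mice. The p-values set the difference between groups against the spread between these libraries, which includes the counting error of the shallow ones.

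Results of some members are not reported here, though counts over all members include them. Members and gene lists were chosen with earlier results of these data known. Named are, per pathway, the 3 hosts with the largest mean, every host or circle past the threshold in limma or edgeR, and the leading circle of each; Nfatc3, Mef2d 2-9 and the remaining members given with values were singled out after their values were seen. Marker lists covered cardiomyocytes, fibroblasts, endothelium, leukocytes and the cell types that follow. Summed levels were 0 to 0.379 in sham and 0 to 5.77 in TAC libraries for smooth muscle and pericytes, 2.28 to 9.09 and 0 to 7.21 for adipocytes, 0 to 4.54 and 0 to 1.49 for Schwann cells and neurons, and 0 and 0 to 0.636 for erythroid cells.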

Additional observations from a re-analysis of the deposited data

Results flagged for a closer look

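Among 32 groups of 4 libraries (the named hosts in sham and in TAC), 5 had a library far from the other 3. The rule flags about 1 in 20 groups by chance if values are normal and equally precise. These values were not equally precise, so 5 of 32 cannot be set against that rate. The Map3k5 host sum was 54.5 in the second sham library against 13.2 to 17.4 in the others. Map3k5 was also at 0 in the second TAC library against 23.7 to 26.0 in the others. The second sham library was likewise the highest for Plce1, at 13.6 against 2.28 to 4.14, and for Pde3a, at 31.8 against 5.69 to 8.37. Pde10a was at 1.95 in the fourth sham library and at 0 in the other sham libraries. The second sham library had 12, 3 and 7 reads for Map3k5, Plce1 and Pde3a, where 1 read was worth 4.54. The Pde10a value stood for 10 reads. The part of depth in these values was not tested.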

How the results depend on the processing

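The counts of calls depended on the test and on the shallow libraries. The count of member hosts was 0 by limma, 1 by edgeR and 6 by limma without both shallow libraries, and 0 in each limma fit that left out 1 library. By edgeR it was 1, then 3 without the shallow libraries and 0 to 2 when 1 library was left out. Over all hosts limma called 1, TMM rescaling 0, edgeR 84, DESeq2 28, limma without the shallow libraries 357 and 1 to 28 with 1 library left out; edgeR called 299 without the shallow libraries and 11 to 230 with 1 left out. Member circles called were 0 by limma and 4 without the shallow libraries; by edgeR 0, then 3, and 2 with a length offset as well, and 0 to 2 with 1 library left out. Over all circles limma called 1, TMM rescaling 0, edgeR 94, DESeq2 34, limma without the shallow libraries 407 and 0 to 41 with 1 left out; edgeR called 344 without the shallow libraries, 30 with a length offset, 202 with both and 0 to 248 with 1 left out. The causes were not tested.

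Some log2 changes turned sign. Without the shallow libraries limma gave 0.77 for Map3k5, 0.19 for Taok1, 0.089 for Camta1, 1.92 for Mef2a, 1.34 for Prkce, 0.58 for Plce1, 0.41 for Pde3a, 0.12 for Camta1 2-3 and 1.48 for Prkce 7-10. edgeR without them gave 0.34 for Map3k5, 1.41 for Mef2a, 0.77 for Prkce, 0.23 for Plce1, 0.025 for Pde3a and 1.05 for Prkce 7-10. With all libraries edgeR gave 0.93 for Mef2a, 0.46 for Prkce and 0.58 for Prkce 7-10, and DESeq2 gave 0.96 for Mef2a, 0.54 for Prkce and 0.73 for Prkce 7-10. A pseudocount of 1 gave 0.16 for Mef2a. A length offset gave 0.997 for Camta1 2-3 and 0.18 for Prkce 7-10, and without the shallow libraries 1.73 and 0.42.

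With 1 library left out the limma changes ranged from -2.07 to 0.29 for Map3k5, -1.90 to 0.30 for Taok1, -1.81 to 0.35 for Sos2, -0.40 to 0.084 for Camta1, -1.09 to 1.51 for Mef2a, -1.34 to 1.13 for Prkce and -1.61 to 0.064 for Plce1. They ranged from -0.60 to 0.012 for Camta1 2-3, -0.64 to 1.91 for the 412-nt Mef2a 5-7 and -1.18 to 1.11 for Prkce 7-10. Prkd1, Rptor, Mef2d, Pik3r1, Rps6kb1, Pde4d, Lats1 and Dyrk1a kept their sign in these fits.

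No paired analysis was possible because the replicate numbers follow accession order and pair no mice. Depth limits the comparison: 37 of 41 hosts were at 0 in the second TAC library, where 1 read is worth 5.77, and 14 hosts had under 20 reads in all.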
